A study of Mus musculus with 6 samples.

Results

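The ATP-driven calcium pumps of the plasma membrane (PMCA, genes *Atp2b1* to *Atp2b4*) and of the endoplasmic reticulum (SERCA, genes *Atp2a1* to *Atp2a3*) were examined in whole mouse retina. The 7 genes were taken by symbol from a table of 31169 genes, and all 7 were among the 17707 genes with enough counts to be tested. Of the 7, 1 passed the test after microbead injection: *Atp2a2*, the gene of SERCA2, was 1.76-fold lower, while the other SERCA genes and all 4 PMCA genes did not pass. Of all tested genes, 12.8% passed and 6.31% passed with a fall, so that 1 of 7 was near the background share.

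The libraries were made from polyA RNA of whole retina of C57BL/6 mice, with 3 retinas in each group. The saline-injected group received 1 μl of saline into the anterior chamber at 1 month of age. The microbead-injected group received 1 μl of a suspension of 15 μm beads that block the drainage of aqueous humor and elevate intraocular pressure (IOP), and serves as a model of glaucoma. Retina from both groups was harvested 4 weeks later, at 2 months of age. Both eyes of a mouse were injected, and which retinas share a mouse was not given, so the tests measure only the spread between these retinas. In whole retina, fewer cells of a type and less RNA per cell cannot be told apart.

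The totals ran from 13574949 to 46481382 counts per library, with a ratio of 2.40 between the medians of the saline and the microbead group. Levels are therefore given as counts per 1000000 of the scaled library size (CPM). The mitochondrial genome took 3.19% to 3.57% of the counts in saline retina and 8.90% to 10.6% in microbead retina. In the sample descriptions, the saline libraries are named in one series and the microbead libraries in another, so injection and library set cannot be told apart. The rod photoreceptor markers, which define this tissue, summed to between 54024 and 80898 CPM in all 6 libraries.

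Calcium enters retinal neurons through voltage-gated and ligand-gated channels and must be removed again from the cytosol. SERCA pumps carry it into the endoplasmic reticulum, from which inositol trisphosphate and ryanodine receptors release it, and PMCA pumps export it across the plasma membrane with high affinity. Both families are P-type ATPases: in each cycle, ATP phosphorylates an aspartate of the pump, and its hydrolysis drives the change of shape that moves the ion. SERCA2 is the form found in nearly all cells, SERCA1 is that of fast skeletal muscle, and SERCA3 is found in blood cells, endothelium and some epithelia. PMCA1 is the widespread form, PMCA2 and PMCA3 are mostly neuronal, and PMCA4 is broadly distributed. In the retina, PMCA is the main route of calcium extrusion from photoreceptor terminals and bipolar cells.

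The coding stretch around this aspartate is shown for 5 of the pumps, *Atp2a1*, *Atp2a3*, *Atp2b1*, *Atp2b2* and *Atp2b4*, because it is the site at which the pump cycle described above runs. It is shared with other P-type ATPases, and as a conserved site it does not show how far the whole transcripts differ. The stretches are 57 bases long, 5′ to 3′ on the coding strand, from transcripts of GENCODE vM21 on GRCm38. The 15 bases in capitals code for the aspartate that takes the phosphate and the lysine, threonine, glycine and threonine that follow it.
*Atp2a1*: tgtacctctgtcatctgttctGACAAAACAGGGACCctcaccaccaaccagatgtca
*Atp2a3*: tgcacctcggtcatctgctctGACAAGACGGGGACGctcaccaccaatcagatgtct
*Atp2b1*: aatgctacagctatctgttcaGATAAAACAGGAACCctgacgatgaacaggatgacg
*Atp2b2*: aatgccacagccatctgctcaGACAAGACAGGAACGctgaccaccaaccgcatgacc
*Atp2b4*: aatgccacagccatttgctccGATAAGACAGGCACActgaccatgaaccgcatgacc
All 5 held this signature of 5 residues once, spelled by 5 distinct capital sequences. The aspartate was codon 351 in *Atp2a1* and *Atp2a3* and codons 475, 499 and 466 in *Atp2b1*, *Atp2b2* and *Atp2b4*. The stretch of *Atp2a3* lies at chr11:72975585-72975641 and that of *Atp2b1* at chr10:98999796-98999852, both on the plus strand and each within a single coding exon. Of the 57 bases, 49 were the same in the pair of SERCA genes and 45 to 50 in the pairs of PMCA genes, against 32 to 41 between the families.

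The genes lie on 7 chromosomes of GRCm38. The SERCA genes are *Atp2a1* (chr7:126445858-126463108, minus strand), *Atp2a2* (chr5:122453513-122502225, minus) and *Atp2a3* (chr11:72961169-72993044, plus). The PMCA genes are *Atp2b1* (chr10:98914406-99026143, plus), *Atp2b2* (chr6:113743831-114042613, minus), *Atp2b3* (chrX:73503086-73571005, plus) and *Atp2b4* (chr1:133699457-133801041, minus). The 100-base stretches of their transcripts were sought, on either strand, in transcripts of other annotated genes. At most 0.134% of those of the PMCA genes and of *Atp2a3* were shared, against 1.39% for *Atp2a2* and 13.6% for *Atp2a1*. The sharing genes include *Rabep2* for *Atp2a1* and *Gm43361* for *Atp2a2*, which overlap them on the opposite strand, so these shares are not only sequence found at another locus. Whether reads were counted by strand was not given in the sources used here, so counts of genes that overlap on opposite strands may not be separate.

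Compared per kilobase of annotated exon, a scale that allows levels of different genes to be set side by side, *Atp2a2* was the most abundant pump transcript of the retina. This rank depends on the annotated exon lengths, 6.08 kb for *Atp2a2* and 15.2 kb for *Atp2b1*. In CPM, *Atp2b1* was above *Atp2a2* in every library but saline 3. In saline retina *Atp2a2* stood at 64.6 ± 18.9 CPM per kb (SD, n = 3), followed by *Atp2b1* at 29.0 ± 1.72 and *Atp2b2* at 12.04 ± 3.62 CPM per kb. *Atp2b3* (5.04 ± 2.59 CPM per kb) and *Atp2b4* (4.82 ± 1.62 CPM per kb) did not differ beyond their spread. *Atp2a3* (1.29 ± 0.186 CPM per kb) and *Atp2a1* (0.191 ± 0.0811 CPM per kb) were at the lower end. In microbead retina, the same levels were 36.7 ± 1.94 for *Atp2a2*, 23.5 ± 2.62 for *Atp2b1*, 11.8 ± 1.5 for *Atp2b2*, 3.33 ± 1.37 for *Atp2b3*, 3.41 ± 0.0820 for *Atp2b4*, 0.847 ± 0.0882 for *Atp2a3* and 0.452 ± 0.487 CPM per kb for *Atp2a1*. The first 3 places held in all 6 libraries. *Atp2b3* and *Atp2b4* changed places in saline 1 and microbead 1, and *Atp2a1* exceeded *Atp2a3* in microbead 2 alone.

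**Figure D1:**
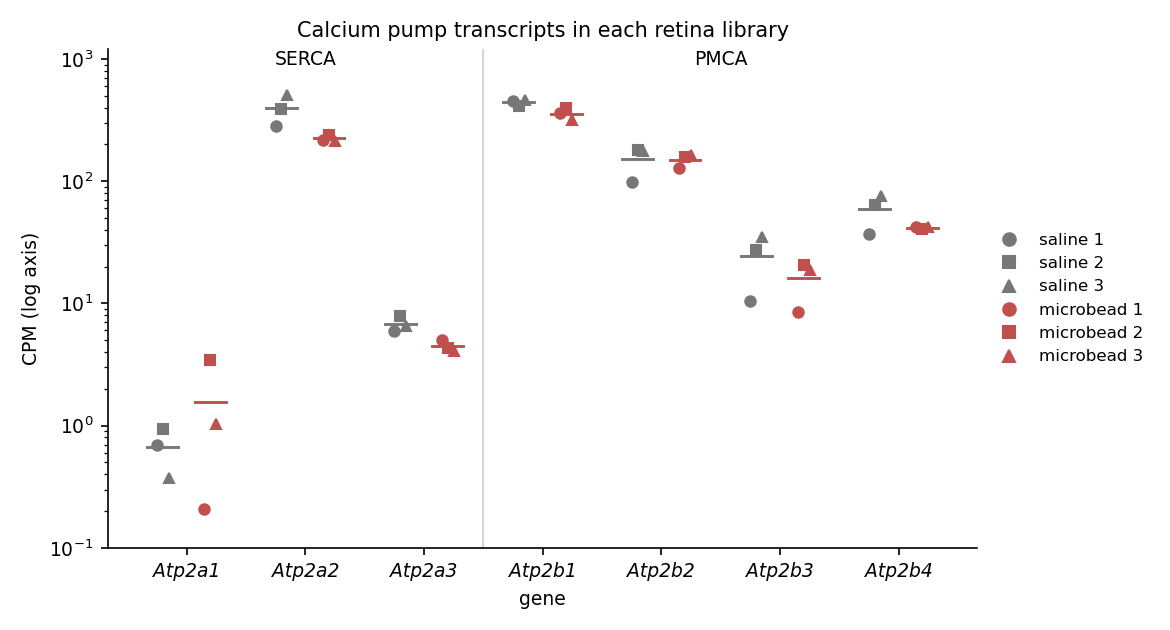
CPM of each pump gene (log axis) in the 3 saline (gray) and 3 microbead (red) libraries, with marker shapes for the replicate numbers and bars for group means. The microbead libraries lay below all saline libraries for *Atp2a2*, *Atp2a3* and *Atp2b1*, and overlapped with them for the other 4 genes.

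*Atp2a2*, which encodes the SERCA2 pump, was measured at 280.5, 388.7 and 510.0 CPM in saline retina and at 219.0, 236.8 and 214.5 CPM in microbead retina. Every microbead library was below every saline library, and the saline libraries were spread more widely, with a coefficient of variation of 29.2% against 5.27%. On average, saline retina held 393 ± 115 CPM and microbead retina 223 ± 11.8 CPM (SD, n = 3 each). In the edgeR fit, the difference came to -0.82 on the log2 scale (SE 0.22, 95% interval -1.32 to -0.31) with an adjusted p of 0.0438, which is a fall of 43.2%. The direction held with any 1 library left out, but the call did not. Leaving out saline 1, the lowest saline library, gave -1.01 and an adjusted p of 0.0150 from edgeR. Leaving out saline 2, saline 3, microbead 1, microbead 2 or microbead 3 gave -0.83, -0.58, -0.81, -0.84 and -0.80, with adjusted p-values of 0.121, 0.0999, 0.105, 0.106 and 0.156 from edgeR. When library sizes were scaled without the mitochondrial genome, the log2 fold change was -0.79 (adjusted p = 0.0483 from edgeR). The call was lost with limma-voom (-0.77, adjusted p = 0.0509) and with an offset for GC content and length (-0.76, adjusted p = 0.0542 from edgeR).

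*Gm43361* lies on the opposite strand of *Atp2a2* and shares 83 exon bases with it. It had 26, 20 and 7 counts in saline retina and 0 in each microbead library, against 3279 to 18743 counts of *Atp2a2*. SERCA2 is found in most cells, and the summed markers of endothelial and horizontal cells were also lower in microbead retina without overlap. The endothelial markers summed to 453.4, 468.3 and 649.8 CPM in saline and 293.6, 424.4 and 278.2 CPM in microbead retina, and 4 of 7 fell, against 6.31% of all tested genes. The horizontal cell markers summed to 97.6, 113.9 and 149.4 CPM and to 93.0, 72.3 and 54.0 CPM, and 1 of 4 fell. The pericyte and smooth muscle markers, from cells in which SERCA2 is abundant, overlapped between the groups (123 to 197.3 and 100.2 to 161.3 CPM), and 1 of the 6 tested fell. The Müller glia markers also overlapped, at 3977, 5335 and 7901 CPM in saline and 4472, 4437 and 3853 CPM in microbead retina, and 2 of 7 fell. Their saline values stood in the order of *Atp2a2*. The same order held for the endothelial, horizontal cell, RGC, amacrine, rod bipolar, pericyte and pigment epithelium markers, so it was not particular to Müller glia. Saline 3, where *Atp2a2* was highest, was also highest in the pigment epithelium markers (255.2 CPM, against 14.1 to 142.1 CPM in the other libraries) and the lens markers (70.5 CPM, against 0.722 to 6.14 CPM). Both are tissues of the eye outside the neural retina. The part of these cell types in the fall of *Atp2a2* was not tested.

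*Atp2a3*, the SERCA3 gene, was low, at 5.92, 7.86 and 6.59 CPM in saline and 4.99, 4.33 and 4.09 CPM in microbead retina. Here too the groups did not overlap. The difference on the log2 scale was -0.60 (SE 0.27, 95% interval -1.20 to 0.0018), and it did not pass the test over all genes (adjusted p = 0.1603 from edgeR). The endothelial markers, from a cell type that holds SERCA3, were lower without overlap, as given above. The leukocyte marker *Ptprc*, which encodes CD45, was highest in saline 1 (6.56 CPM, against 0.260 to 3.71 CPM in the other 5 libraries), where *Atp2a3* was lowest of the saline libraries. The leukocyte and microglia markers summed to 16.9 to 45.7 CPM in saline and 10.1 to 24.0 CPM in microbead retina, and the blood and platelet markers to 17.6 to 43.8 and 15.3 to 42.0 CPM. Of 6 markers tested in each list, 0 passed with edgeR (2 and 1 at an unadjusted p under 0.05, as did 31.4% of all tested genes). DESeq2 called 2 of the leukocyte and microglia list and 0 of the blood and platelet list, against 3582 of 17692 genes in its fit. The part of endothelium, leukocytes and blood in the values of *Atp2a3* was not tested.

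*Atp2a1*, the SERCA1 gene, was near the limit of detection, with 26, 45 and 13 counts in saline and 4, 48 and 16 counts in microbead retina, or 0.691, 0.933 and 0.371 CPM and 0.206, 3.47 and 1.04 CPM. A count of 3 corresponds to between 0.0622 and 0.217 CPM in these libraries. The highest and the lowest values were both in microbead retina, so the groups overlapped. edgeR put the difference at 1.21 on the log2 scale, with an SE of 0.83, a 95% interval of -0.66 to 3.07 and an adjusted p of 0.353, and without microbead 2 it turned to -0.10 (adjusted p = 0.953 from edgeR). In microbead 2, the skeletal muscle genes *Myh1*, a fast myosin heavy chain, and *Tnnt3*, a fast troponin, stood at 2.02 and 2.46 CPM, against at most 0.133 CPM in the other 5 libraries. Of the other listed muscle markers, *Ttn*, *Ckm* and *Myh2* were also highest in microbead 2. *Acta1* was highest in saline 3 (2.25 CPM, against 2.02 CPM in microbead 2) and *Actn3* in saline 2 (0.89 against 0.87 CPM). *Mylpf* was highest in microbead 1 (6.95 against 6.57 CPM), and *Myh4* and *Myh13* had no counts in microbead 2. The skeletal muscle markers summed to 8.33 to 8.59 CPM in saline and 12.2 to 19.4 CPM in microbead retina. Of this sum, *Mylpf* alone held 6.37 to 6.95 CPM in microbead retina, and it was lower in every saline library. *Rabep2*, on the opposite strand, shares 763 exon bases with *Atp2a1* and was more abundant, at 10.6 to 13.8 CPM in saline and 15.8 to 21.4 CPM in microbead retina. The part of muscle and of *Rabep2* in the values of *Atp2a1* was not tested.

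*Atp2b1*, which encodes PMCA1, was the leading PMCA gene, at 453.7, 411.2 and 458.9 CPM in saline and 363.2, 394.3 and 315.3 CPM in microbead retina. Its groups did not overlap, but the difference did not pass the test over all genes. In the edgeR fit, the difference came to -0.30 on the log2 scale (SE 0.17, 95% interval -0.68 to 0.07) with an adjusted p of 0.249. The rod markers, from cells whose terminals use PMCA, overlapped (61045 to 80898 CPM in saline and 54024 to 67471 CPM in microbead retina), as did the cone markers (975.7 to 1185 and 1078 to 1243 CPM).

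*Atp2b2*, which encodes PMCA2, was at 99.1, 179.8 and 176.5 CPM in saline and 127.3, 157.2 and 162.3 CPM in microbead retina. The saline range enclosed the microbead range. edgeR put the difference at -0.03 on the log2 scale, with an SE of 0.24, a 95% interval of -0.57 to 0.51 and an adjusted p of 0.952. Its sign turned when saline 2 (0.11), saline 3 (0.09) or microbead 1 (0.07) was left out, and with an offset for GC content and length (0.12). Changes in either direction within this interval are compatible with these values, and the interval is not a limit of detection.

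*Atp2b3*, which encodes PMCA3 and is X-linked, varied most among the PMCA genes, at 10.5, 27.5 and 34.8 CPM in saline and 8.49, 20.8 and 18.8 CPM in microbead retina. The library numbered 1 was the lowest of its group on both sides. The coefficients of variation were 51.5% and 41.2%, and the groups overlapped. In the edgeR fit, the difference came to -0.60 on the log2 scale (SE 0.44, 95% interval -1.59 to 0.39) with an adjusted p of 0.384, the same size as that of *Atp2a3* but with a wider interval. It was -0.97 without saline 1 (adjusted p = 0.0739 from edgeR), -0.25 without saline 3 and -0.30 without microbead 1.

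*Atp2b4*, which encodes PMCA4, was at 37.1, 64.2 and 75.8 CPM in saline and 42.5, 40.6 and 42.0 CPM in microbead retina. The microbead libraries were close together, at a coefficient of variation of 2.41%, and saline 1 lay below all of them. edgeR put the difference at -0.50 on the log2 scale, with an SE of 0.25, a 95% interval of -1.06 to 0.05 and an adjusted p of 0.199. Without saline 1, it was -0.75 and passed (adjusted p = 0.0287 from edgeR), and without saline 3 it was -0.28.

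Saline 1 was the lowest saline library for *Atp2a2*, *Atp2a3*, *Atp2b2*, *Atp2b3* and *Atp2b4*. In the same library, the markers of retinal ganglion cells (RGCs) summed to 368.9 CPM, while saline 2 and 3 held 1062 and 1362 CPM and microbead retina 900.7 to 1233 CPM. The amacrine cell markers summed to 675.9 CPM there, against 1050 and 1216 CPM in saline 2 and 3 and 732.3 to 791.3 CPM in microbead retina. RGCs and amacrine cells are among the neurons that could hold PMCA2 and PMCA3. Saline 1 was also the lowest saline library for rod bipolar markers (936.3 CPM, against 1107 and 1158 CPM), Müller glia markers (3977, against 5335 and 7901 CPM) and pigment epithelium markers (14.1, against 60.1 and 255.2 CPM). The part of the cell makeup of saline 1 in the pump values was not tested.

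**Figure D2:**
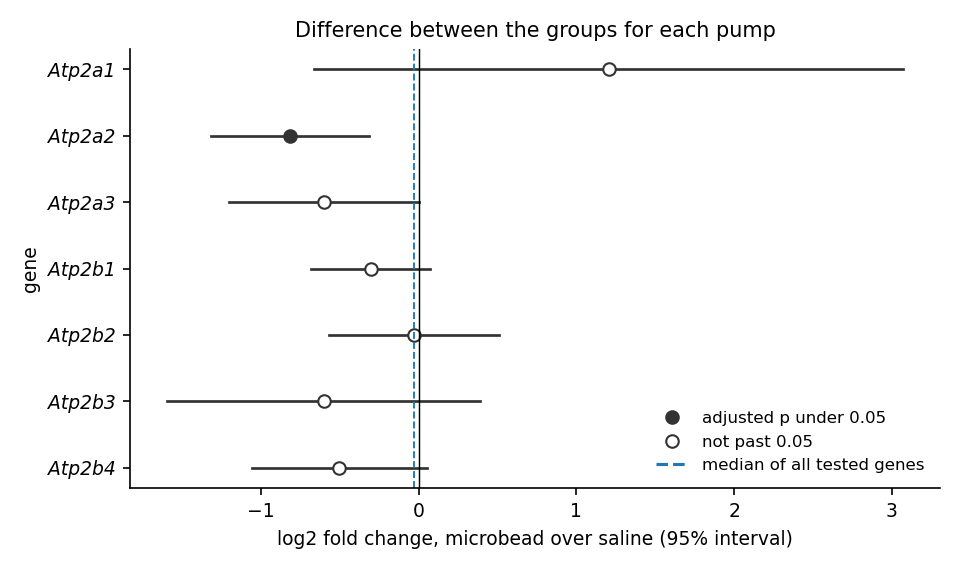
Log2 fold change of each pump gene, microbead over saline, with its 95% interval from the edgeR fit (filled point, adjusted p under 0.05) and the median of all tested genes (dashed line, -0.03). The interval of *Atp2a2* lies wholly below 0, and those of the other 6 genes reach or cross it.

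Over the 7 pumps, 6 log2 fold changes were below 0, as were 52.1% of those of all tested genes, and that of *Atp2b2* was too close to 0 to keep its sign under limma-voom. Of the 4 PMCA genes, 0 had an unadjusted p under 0.05 with edgeR, and DESeq2 and limma-voom called 0, while 31.4% of all tested genes had an unadjusted p under 0.05. The median log2 fold changes were -0.60 for the 3 SERCA genes and -0.40 for the 4 PMCA genes, against -0.03 over all tested genes. The groups did not overlap for 3 of the 7, *Atp2a2*, *Atp2a3* and *Atp2b1*, all lower in microbead retina, and of all tested genes 37.8% did not overlap and 18.9% did not overlap and were lower. The standard errors of 0.17 to 0.44 of the 6 pumps other than *Atp2a1* lay around the median of 0.26 over all tested genes.

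*Atp2a2* made up 95.5% to 98.4% of the SERCA transcripts per kb in each library, so the SERCA sum followed this gene. The SERCA sum was 287.2, 397.5 and 517.0 CPM in saline and 224.2, 244.6 and 219.6 CPM in microbead retina, a log2 ratio of means of -0.80 without overlap. The PMCA sum was 600.4, 682.8 and 746.0 CPM in saline and 541.5, 612.9 and 538.4 CPM in microbead retina, a log2 ratio of means of -0.26 with overlap. Both sums were lowest in saline 1 and highest in saline 3 among saline libraries.

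Set against each other per kb, PMCA transcripts stood at 0.903, 0.795 and 0.675 times the SERCA transcripts in saline and at 1.06, 1.13 and 1.13 times in microbead retina. The SERCA sum per kb exceeded the PMCA sum per kb in every saline library, and the reverse was found in every microbead library. These ratios are a description and depend on the annotated exon lengths. Within the PMCA family, the share of *Atp2b1* per kb was 69.5%, 51.7% and 52.4% in saline and 60.9%, 56.3% and 50.6% in microbead retina, and that of *Atp2b2* was 18.3%, 27.3% and 24.3% against 25.7%, 27.1% and 31.4%. The shares of all 4 PMCA genes overlapped between the groups.

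**Figure D3:**
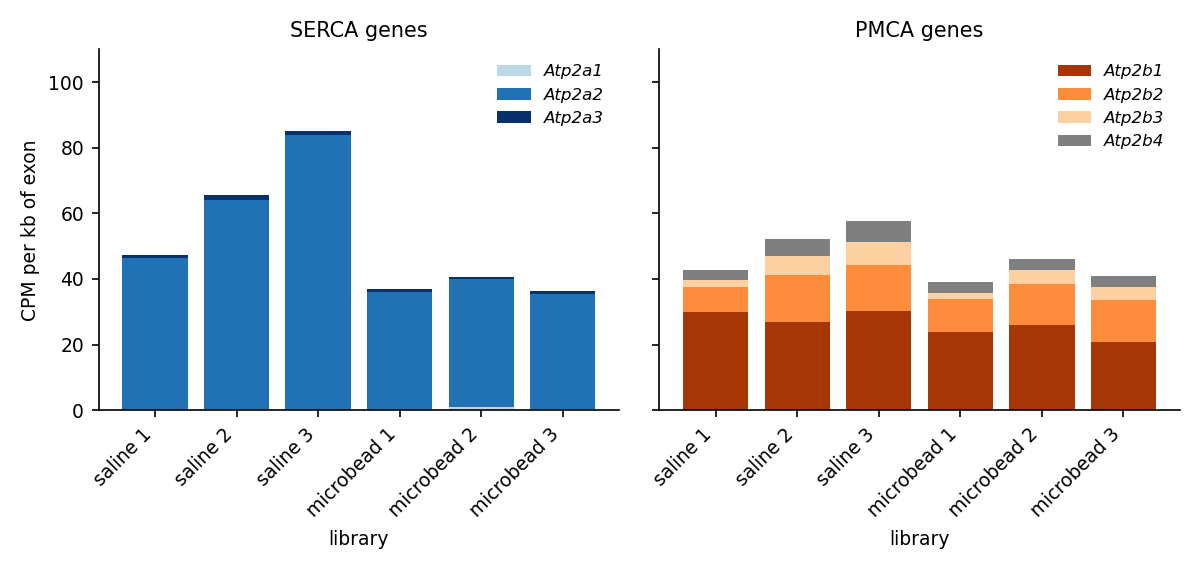
Stacked CPM per kb of exon of the SERCA genes (left) and PMCA genes (right) in each library. The SERCA stacks are almost wholly *Atp2a2* and shorten from 47.4 to 85.2 CPM per kb in saline to 36.4 to 40.8 in microbead retina, and the PMCA stacks span 42.9 to 57.6 and 39.2 to 46.0 CPM per kb.

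The genes whose levels followed each pump most closely over the 6 libraries were sought among the 15087 genes that averaged 1 CPM or more. With so few libraries, which also share group and depth, many genes reach a high likeness by Pearson correlation of log2 CPM, and the values are given as a description. For *Atp2a2* they were *Sphk1* (0.998) and *Nipa1* (0.997), out of 247 genes above 0.95. They were *Stk17b* and *Pgap1* for *Atp2a3*, *Arhgef37* and *Eml6* for *Atp2a1*, *Ifih1* and *Gm17057* for *Atp2b1*, *Prlr* and *Phf24* for *Atp2b2*, *Fam13a* and *B230209E15Rik* for *Atp2b3*, and *Galnt15* and *Ret* for *Atp2b4*, all between 0.980 and 0.995. None of these 14 genes passed the test between the groups.

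Other genes that handle calcium beside the pumps were described from lists of partners, channels, exchangers and binding proteins. Of 66 listed genes, 58 were tested, and 4 were lower and 4 higher in microbead retina. This was 13.8% of them, against 12.8% of all tested genes, and the shares with a fall and with a rise over all tested genes were 6.31% and 6.46%. The median log2 fold change of the 58 was -0.13.

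Among proteins that bind PMCA, 2 of 9 passed, in opposite directions, against 12.8% of all tested genes. *Cask*, a membrane scaffold that binds the PMCA tail, was at 70.8, 89.9 and 98.1 CPM in saline and 46.1, 52.2 and 54.1 CPM in microbead retina (log2 fold change -0.76 ± 0.18 SE, adjusted p = 0.0288 from edgeR). *Dlg4*, which encodes the synaptic scaffold PSD-95, rose from 653.4, 615.4 and 619.7 CPM to 829.2, 1052 and 1186 CPM (0.70, standard error 0.19, adjusted p = 0.0400 from edgeR). *Bsg* and *Nptn*, whose proteins are subunits of PMCA complexes, had log2 fold changes of -0.08 and -0.15 and did not pass.

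Among SERCA partners and proteins of the reticulum lumen, 12 of 17 were tested, and 2 were higher, against 6.46% of all tested genes. *Casq1*, the luminal calcium store protein of skeletal muscle, was at 2.10, 1.06 and 0.713 CPM in saline and 5.25, 8.16 and 7.601 CPM in microbead retina (2.44, standard error 0.44, adjusted p = 0.0152 from edgeR). Its count is uncertain: the antisense gene *Gm17224* shares 156 of its exon bases and stood at 0.0571 to 0.558 CPM in saline and 2.96 to 8.85 CPM in microbead retina. *S100a1*, a calcium-binding protein that binds SERCA2, was at 30.1, 17.3 and 23.2 CPM in saline and 78.6, 56.5 and 41.4 CPM in microbead retina (1.32, standard error 0.28, adjusted p = 0.0212 from edgeR). The SERCA inhibitor phospholamban (*Pln*) had 0.171 to 0.744 CPM in saline and 0.0650 to 0.309 CPM in microbead retina and was too low to test.

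Among the calcium release channels, 2 of 6 passed, against 12.8% of all tested genes. *Itpr2*, an inositol trisphosphate receptor, was at 18.7, 16.7 and 16.9 CPM in saline and 11.6, 11.2 and 9.48 CPM in microbead retina (-0.70, standard error 0.20, adjusted p = 0.0483 from edgeR). This call was lost in edgeR with RLE scaling (adjusted p = 0.0517), scaling without the mitochondrial genome (0.0534) and at least 10 counts in every library (0.0527). It was also lost with limma-voom (0.0540), and in edgeR with the GC and length offset (0.152), the replicate number as a block (0.0804) and both together (0.157). The call was kept with DESeq2 (adjusted p = 0.01865), where 3582 of 17692 genes passed, and in edgeR with no filter (0.0457), where 3720 of 31169 passed. *Ryr1*, the ryanodine receptor of skeletal muscle, was at 1.75, 2.36 and 0.799 CPM in saline and 3.91, 6.64 and 6.82 CPM in microbead retina (1.81, standard error 0.45, adjusted p = 0.0325 from edgeR). *Casq1* and *Ryr1* are muscle genes, and the muscle gene *Mylpf* was also higher, at 2.34 to 3.001 CPM in saline and 6.37 to 6.95 CPM in microbead retina (1.31, adjusted p = 0.0223 from edgeR), and was the only 1 of 5 tested muscle markers to pass. The others were *Acta1* (-0.06), *Actn3* (0.29), *Ttn* (0.39) and *Ckm* (0.74), and *Myh1* and *Tnnt3*, too low to test, were higher in microbead 2 alone. The part of muscle in these values was not tested.

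For store-operated entry, by which an emptied reticulum is refilled from outside, 1 of 6 passed, against 12.8% of all tested genes. *Saraf*, a reticulum protein that turns this entry off, fell from 181.7, 171.4 and 228.2 CPM to 104.2, 77.2 and 94.4 CPM (-1.08, standard error 0.19, adjusted p = 0.0149 from edgeR). For the cytosolic calcium-binding proteins, 1 of the 8 tested passed, against the same 12.8% of all tested genes. *Ncs1*, a neuronal calcium sensor, was at 51.3, 91.7 and 100.1 CPM in saline and 36.9, 37.5 and 48.8 CPM in microbead retina (-0.98, standard error 0.26, adjusted p = 0.0391 from edgeR, and 0.0544 from limma-voom).

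In 3 lists no gene passed the main edgeR test. The 8 mitochondrial calcium genes tested had log2 fold changes below 0 (median -0.40), although 7 of 8 were below 0 with RLE scaling, with scaling without the mitochondrial genome and with DESeq2. At an unadjusted p under 0.05 there was 1 of 8, against 31.4% of all tested genes, and DESeq2 and limma-voom called 0. The lowest p was that of *Letm1*, an ion exchanger of the inner mitochondrial membrane (-0.48, adjusted p = 0.0757 from edgeR). Of 8 exchangers that trade calcium for sodium, 7 were below 0 (median -0.34), and *Slc24a4*, a potassium-dependent exchanger, was nearest to the threshold (-1.17, adjusted p = 0.0509 from edgeR). It was the 1 exchanger with an unadjusted p under 0.05 from edgeR. It passed with limma-voom (adjusted p = 0.0361) and with DESeq2 (adjusted p = 0.00722), where 3582 of 17692 genes passed. In edgeR it passed with at least 10 counts in every library (adjusted p = 0.0443), the GC and length offset (0.0396) and the replicate number as a block (0.0443). It also passed in edgeR without saline 1 (0.0333), without microbead 2 (0.0426) and with no filter (0.000151), where 3720 of 31169 genes passed. In edgeR it did not pass with RLE scaling (0.0533) or scaling without the mitochondrial genome (0.055). Nor did it pass in edgeR without saline 2 (0.134), saline 3 (0.0848), microbead 1 (0.091) or microbead 3 (0.174). *Atp2c1*, the calcium pump of the Golgi membrane, was at 126.1 to 133.8 CPM in saline and 107.2 to 126.8 CPM in microbead retina (-0.13, adjusted p = 0.603 from edgeR), and its count is uncertain because *Aste1*, on the opposite strand, shares 1837 of its exon bases.

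**Figure D4:**
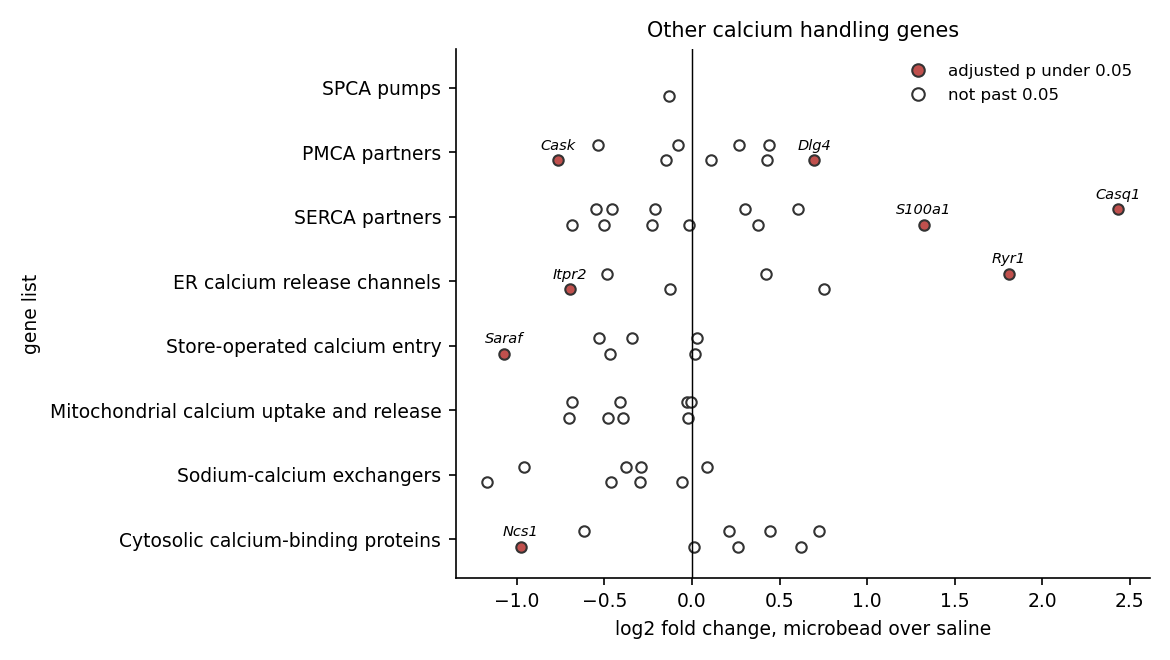
Log2 fold change, microbead over saline, of the 58 tested calcium handling genes other than PMCA and SERCA pumps, one row for each list (filled points, adjusted p under 0.05). The 8 named points lie on both sides of 0, and the 8 mitochondrial genes lie below it in this fit.

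Each of these 8 calls was lost when some 1 library was left out. Without microbead 3, 0 of the 8 were past the threshold (adjusted p 0.0688 to 0.153 from edgeR), and without saline 2 only *Saraf* was (the others at 0.0568 to 0.150). Without microbead 2 only *Casq1* was (the others at 0.0515 to 0.122), and without microbead 1 *Dlg4*, *Casq1* and *Saraf* were (the others at 0.0548 to 0.111). Without saline 3, *Casq1*, *S100a1*, *Ryr1* and *Saraf* were past it (the others at 0.0613 to 0.0817), and without saline 1 all but *Dlg4* (0.0550) and *Itpr2* (0.0801) were.

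**Figure D5:**
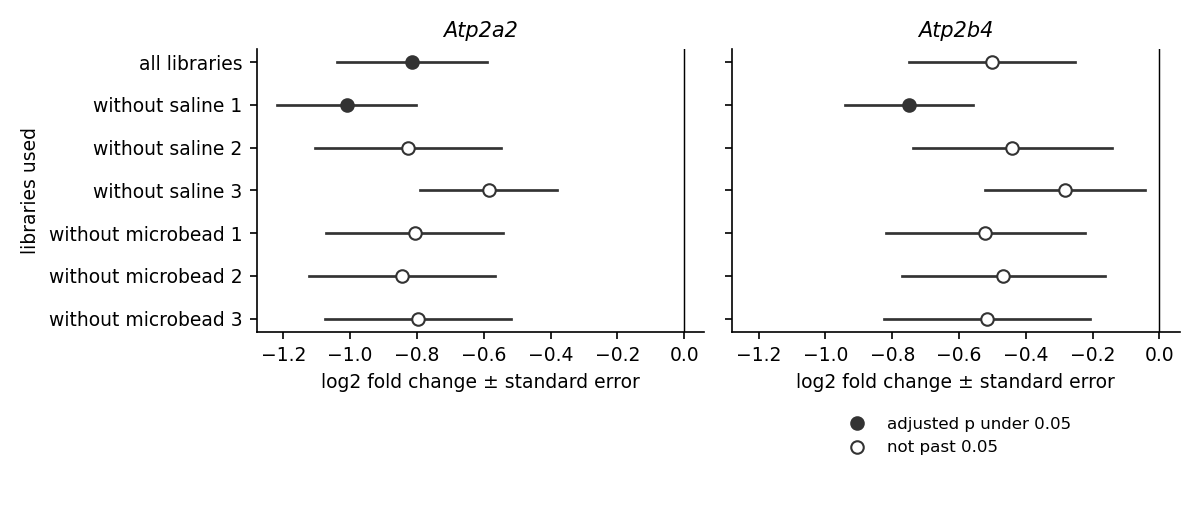
Log2 fold change with its standard error for *Atp2a2* and *Atp2b4* in the edgeR fit of all 6 libraries and with each library left out (filled points, adjusted p under 0.05). *Atp2a2* stays between -1.01 and -0.58 and is past the threshold with all libraries and without saline 1. *Atp2b4* lies between -0.75 and -0.28 and is past it without saline 1 alone.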

How the data were processed

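Retinal RNA was sequenced as 100-bp paired reads from stranded polyA libraries of 3 saline-injected and 3 microbead-injected retinas, with groups as the sample records give them. Reads were aligned by the authors to GRCm38.p5 with STAR 2.5.3a and GENCODE vM12 and counted per gene with featureCounts 1.15.2. The deposited values are raw counts. Columns of the authors' own DESeq2 comparison (means, fold changes, p-values and calls) were not used.

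Counts were filtered with filterByExpr (minimum 10, total 15), scaled by TMM and tested, two-sided, by quasi-likelihood in edgeR 4.0.16 (R 4.3.3), adjusted by Benjamini-Hochberg over all 17707 genes with a threshold of 0.05. Likeness used log2 CPM with a prior count of 2. Exon lengths, positions and coding stretches were taken from GENCODE vM21, and the coding stretches of the other 2 pumps are not reported here. Of these steps, only the scaling and the edgeR fit of the group alone were run on simulated counts. Those counts were drawn with the means and dispersions of these data. Intervals are at 95%, and limits of 3 counts cover counting error only. The smallest chi-square per degree of freedom between libraries of a group was 20.1, so none was a copy of another.

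The pumps and gene lists were chosen with earlier results of these data known. Named were all pumps, up to 3 genes past the threshold per list (or that with the lowest p), the 2 genes most like each pump, and markers of cells that may hold a pump. *Pln*, *Bsg*, *Nptn*, *Mylpf*, *Aste1*, *Gm17224* and *Gm43361* were named after their values were seen. Alternatives were other scalings, filters and tools (DESeq2 1.42.0, limma-voom 3.58.1), a replicate block, a GC and length offset, a threshold of 0.01, and each library left out.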

Additional observations from a re-analysis of the deposited data

How the results depend on the processing

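Across the alternatives, *Atp2a2* stayed lower in microbead retina. It was past the threshold with RLE scaling, scaling without the mitochondrial genome, at least 10 counts in every library, DESeq2 and no filter, and not with limma-voom (-0.77, adjusted p = 0.0509) or with the offset for GC content and length (-0.76, adjusted p = 0.0542 from edgeR). With one library left out its log2 fold change ran from -1.01 to -0.58, that of *Atp2b3* from -0.97 to -0.25, that of *Atp2b4* from -0.75 to -0.28, that of *Atp2b2* from -0.26 to 0.11, and that of *Atp2a1* turned to -0.10 at its lowest and reached 1.74 at its highest. *Atp2b2* turned sign with limma-voom (0.016) and with the offset (0.12). With the offset, *Atp2b1* moved to -0.17. The stricter count filter removed *Atp2a1*, so no value was had there.

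The main edgeR fit put 2261 genes past the threshold, and separate fits put 3720 past it without a filter (2209 lower, with the median over all genes at -0.23 and the prior degrees of freedom at 77.1 against 5.59), 3582 with DESeq2, 87 with a threshold of 0.01, and 46 to 2621 with one library left out (46 without microbead 3, 2621 without saline 1). Of the other calcium handling genes, 13 of 62 passed without a filter, against 3720 of all 31169 genes in that fit. With DESeq2, 13 of 58 passed, against 3582 of 17692. With one library left out, the count ran from 0 of 60 without microbead 3 (46 of 19313 genes) to 10 of 57 without saline 1 (2621 of 17321 genes). The log2 ratio of the SERCA sum ran from -0.99 to -0.58 and that of the PMCA sum from -0.34 to -0.19 with one library left out.

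With the replicate number as a block, 905 of 17707 genes passed, among them 4 of the 58 other calcium handling genes. With the block and the offset together, 1198 genes passed. In these fits *Atp2a2* was at -0.77 (adjusted p = 0.0761) and -0.71 (adjusted p = 0.108), and *Atp2b2* at 0.0146 and 0.16, all from edgeR. Whether the numbers pair the retinas was not given, and deviations from the means of 3 libraries per group cannot settle it. Deviations of same-numbered libraries correlated at -0.0127, 0.141 and -0.00858, and not every library correlated best with its own number.

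Depth limits *Atp2a1*, with as few as 4 counts in a library, and sets no limit for *Atp2a2* and *Atp2b1*, for which the spread between retinas did. No fit can hold the library set as a term.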
